A study of Mus musculus with 9 samples.

Results

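The MAP kinase phosphatases are the members of the Dusp gene family that dock onto MAP kinases and inactivate them. All 10 genes chosen by name (Dusp1, Dusp2, Dusp4, Dusp5, Dusp6, Dusp7, Dusp8, Dusp9, Dusp10 and Dusp16) were found among the 35275 genes measured, and all 10 passed the filter on low counts that left 13082 genes for testing. The RNA came from mouse embryonic fibroblasts (MEFs), a cultured connective-tissue cell of the C57Bl/6 strain, and was sequenced after poly-T selection. There were 3 libraries of untreated, iso-osmolar cells (control), 3 of cells kept for 3 h in medium with 200 mM added sucrose (500 mOsm in total, the low-intensity hyperosmotic stress) and 3 of cells kept for 3 h with 300 mM added sucrose (600 mOsm, the high-intensity stress). The cells of all 9 libraries were wild type and grew in serum-containing medium, and the labels give neither their passage nor whether the line was a clone. No mock treatment time is given for the control cells, so handling of the medium and added sucrose cannot be told apart. Nothing in the labels says that replicates came from separate cultures, so each p-value measures only the spread between these samples.

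A MAP kinase is switched on when a MAP2 kinase phosphorylates a threonine and a nearby tyrosine in its activation loop. A dual-specificity phosphatase removes both phosphates and so ends the signal. Several Dusp genes are themselves transcribed in response to MAP kinase activity, which makes them feedback inhibitors, and their mRNAs are short-lived. Dusp1, Dusp2, Dusp4 and Dusp5 encode nuclear enzymes, most of them products of inducible early genes. Dusp6, Dusp7 and Dusp9 encode cytoplasmic enzymes that prefer the ERK kinases, which respond to growth factors. Dusp8, Dusp10 and Dusp16 encode enzymes that prefer p38 and JNK, the kinases activated by osmotic and other stress.

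The promoters of 3 members are shown because each held a repeat or a single copy of a motif known from signal-responsive genes. Of these members, Dusp1 rose at 500 mOsm, and Dusp5 and Dusp8 were both lower than control at both intensities. The RefSeq promoter table (GRCm38.p6) gave a window for 8 of the 10 members, with none for Dusp4 and Dusp9. The 250 bases before the start that RefSeq gives were searched on both strands. This start differs for some members from the end of the gene span given below. The Dusp8 and Dusp10 windows lay wholly inside those spans, and the Dusp1 and Dusp5 windows overlapped theirs in part. Capitals mark a match to the cAMP response element, TGACGTCA, to which CREB and ATF proteins bind, or to the CArG box, to which serum response factor binds. The windows, each written 5′ to 3′ on the strand of its gene, were chr17:26508473-26508722 on the minus strand for Dusp1, chr19:53528895-53529144 on the plus strand for Dusp5 and chr7:142095285-142095534 on the minus strand for Dusp8.
Dusp1: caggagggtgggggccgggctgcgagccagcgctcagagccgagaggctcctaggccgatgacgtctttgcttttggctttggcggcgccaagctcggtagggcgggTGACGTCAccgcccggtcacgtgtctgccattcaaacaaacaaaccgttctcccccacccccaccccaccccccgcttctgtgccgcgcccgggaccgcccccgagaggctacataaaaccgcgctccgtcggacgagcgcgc
Dusp5: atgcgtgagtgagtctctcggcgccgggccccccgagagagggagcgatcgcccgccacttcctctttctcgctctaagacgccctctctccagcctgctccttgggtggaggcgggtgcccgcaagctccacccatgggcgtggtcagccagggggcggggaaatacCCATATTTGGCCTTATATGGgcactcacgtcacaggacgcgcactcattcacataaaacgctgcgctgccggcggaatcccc
Dusp8: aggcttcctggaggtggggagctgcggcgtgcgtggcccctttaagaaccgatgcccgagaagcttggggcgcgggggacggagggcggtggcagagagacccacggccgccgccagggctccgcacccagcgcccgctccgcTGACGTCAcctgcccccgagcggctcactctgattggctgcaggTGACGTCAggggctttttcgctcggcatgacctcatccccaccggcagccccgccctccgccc

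The Dusp1 window held 1 cAMP response element, 143 to 136 bases before the start. The Dusp8 window held 2 copies, at 107 to 100 and at 63 to 56 bases before the RefSeq start, inside the gene span listed for Dusp8. A cAMP response element was found in 1.55% of 32817 mouse promoter windows of the same length, and at least 2 copies in 0.0305% of them, or 10 windows. In Dusp5, 2 CArG boxes lay end to end at 82 to 73 and at 72 to 63 bases before the start. A CArG box was held by 1.47% of all windows, and the share with 2 of them was not counted. Dusp16 matched the core of a heat shock element, GAANNTTC, which 6.69% of all windows held. None of the 8 windows held an AP-1 site (TGANTCA, in 6.75% of all windows) or a kappaB site by its usual consensus (3.9%). The core of the tonicity-responsive element (TGGAAA, in 18.6% of all windows) was also absent from all 8. These matches describe letters in the windows and were not tested as binding sites.

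Total counts ran from 21716042 to 26740832 per library, and no library stood apart in depth. Levels are given as FPKM, fragments per length of transcript and per depth of library, which can be compared between genes, and changes as log2 fold changes of counts with their standard errors (SE). A gene is called higher or lower where its p from edgeR's quasi-likelihood test, adjusted over all genes tested, was under 0.05. Fibroblast markers such as Col1a1 and Vim summed to 5510 to 6443 FPKM in every library, with 10 of the 12 above 1 FPKM in each treatment, although Dcn was listed at 0 in all control libraries. The other marker lists were far lower, with their sums above control at 500 mOsm. Endothelial markers summed to 0.211 to 0.265 FPKM in control, 3.41 to 3.86 at 500 mOsm and 0.733 to 1.06 at 600 mOsm, mostly from Pecam1 at 500 mOsm. Epithelial markers reached 0.883 to 1.19, 1.81 to 2.48 and 0.982 to 1.44 in that order. Blood cell markers reached 3.25 to 3.57, 4.68 to 5.10 and 3.42 to 3.71, neural markers 0.616 to 1.03, 1.84 to 2.17 and 1.03 to 1.34, and pluripotent cell markers 0.280 to 0.428, 0.497 to 0.582 and 0.485 to 0.689. The markers outside the fibroblast list called higher at 500 mOsm were Pecam1 (a mean of 0.0816 FPKM in control and 3.25 at 500 mOsm), Tek (0.00330 and 0.103), the epithelial Cdh1 (0.00306 and 0.784), the blood cell genes Itgam (0.00921 and 0.385) and Csf1r (2.39 and 3.10) and the neural Tubb3 (0.719 and 1.76). Krt5, Hbb-bs and Zfp42 had a mean of 0 in each group, and the part of these lists in the results was not tested.

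At 500 mOsm, Dusp1 alone of the 10 phosphatases rose, by 11.5-fold, while Dusp5, Dusp6, Dusp7 and Dusp8 fell, where 13.2% of all genes tested were higher and 14.8% lower. At 600 mOsm, none rose against control and 7 fell, where 15.1% of all genes were higher and 20.0% lower, and Dusp1 did not differ from control by the test. All 4 nuclear members were called between the intensities, Dusp5 higher and the other 3 lower at 600 mOsm, where 11.9% of all genes were higher and 17.2% lower. Both stress comparisons share the control libraries, so their values are given side by side and are not independent. In bulk RNA, fewer cells of a type and less RNA per cell cannot be told apart.

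**Figure D1:**
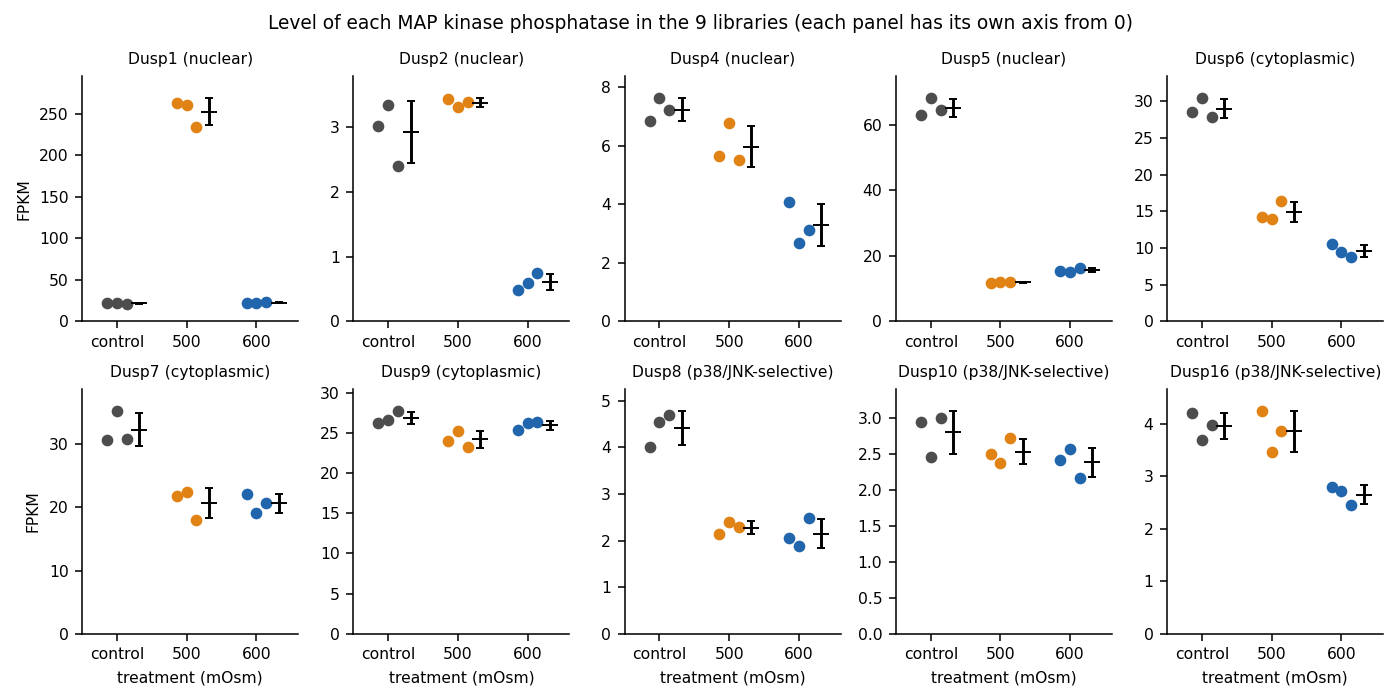
Level of each MAP kinase phosphatase in FPKM (vertical axis, starting at 0 and scaled to each gene) in control, 500 mOsm and 600 mOsm cells. Each point is 1 library, and the black bars give the mean and SD of 3 libraries. Dusp1 reached 234 to 263 FPKM at 500 mOsm only, and Dusp5 was highest in control.

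Dusp1, the inducible nuclear phosphatase that acts on p38, JNK and ERK, is a gene of 2.93 kb and 4 exons (ENSMUSG00000024190, chr17:26505590-26508519, minus strand, mm10). Its level was 22.6, 22.1 and 21.4 FPKM in the control libraries, 263, 261 and 234 FPKM at 500 mOsm and 22.6, 22.1 and 22.9 FPKM at 600 mOsm. Each 500 mOsm library stood far above the other 6, which overlapped one another. The log2 fold change at 500 mOsm was 3.52 (SE 0.0622, edgeR adjusted p = 1.92e-12), and its p was the smallest of all 13082 genes tested. By log2 fold change, counted from the highest, Dusp1 ranked 245 among those genes. At 600 mOsm the log2 difference from control was 0.05, with a 95% confidence interval of -0.08 to 0.19 and an edgeR adjusted p of 0.516. Against 500 mOsm, the level at 600 mOsm was 11.1-fold lower (log2 fold change -3.47, SE 0.0620, edgeR adjusted p = 1.36e-12).

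Dusp5, the nuclear phosphatase that acts on ERK, moved opposite to Dusp1 at 500 mOsm and was below control at both intensities. It lies at chr19:53529109-53542431 on the plus strand (ENSMUSG00000034765, 4 exons). Control libraries had 63.0, 68.1 and 64.6 FPKM, the highest level of any member in untreated cells. This dropped to 11.8, 11.9 and 12.0 FPKM at 500 mOsm and to 15.5, 15.03 and 16.2 FPKM at 600 mOsm, so that the 3 groups did not overlap. The low-intensity stress lowered Dusp5 5.47-fold (log2 fold change -2.45, SE 0.0599, edgeR adjusted p = 1.90e-11) and the high-intensity stress 4.13-fold (log2 fold change -2.05, SE 0.0587, edgeR adjusted p = 2.74e-10). It was the only member higher at 600 than at 500 mOsm by the test, with a log2 fold change of 0.41 (SE 0.0604, edgeR adjusted p = 0.000273).

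Dusp2 and Dusp4, the other nuclear enzymes, were called lower at 600 mOsm but not at 500 mOsm. Dusp2, which acts on ERK and p38 and is best known from activated lymphocytes (ENSMUSG00000027368, chr2:127336159-127338376, plus strand), had 3.02, 3.34 and 2.40 FPKM in control, 3.43, 3.31 and 3.39 FPKM at 500 mOsm and 0.487, 0.587 and 0.745 FPKM at 600 mOsm. The 600 mOsm values rest on 19, 21 and 32 counts, against 94 to 143 counts in the other libraries, and all 3 lay below the other 6. Dusp2 was 4.70-fold lower at 600 mOsm than in control (log2 fold change -2.23, SE 0.192, edgeR adjusted p = 2.51e-06) and 5.44-fold lower than at 500 mOsm (log2 fold change -2.44, SE 0.188, edgeR adjusted p = 1.05e-06). At 500 mOsm its log2 difference from control was 0.21 (95% interval -0.12 to 0.54, edgeR adjusted p = 0.342).

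Dusp4, which acts on ERK and JNK (ENSMUSG00000031530, chr8:34807297-34819894, plus strand), measured 6.84, 7.63 and 7.22 FPKM in control, 5.64, 6.77 and 5.51 FPKM at 500 mOsm and 4.07, 2.67 and 3.12 FPKM at 600 mOsm. The 600 mOsm libraries lay below all others, and the control and 500 mOsm groups, apart in FPKM, overlapped in scaled counts. The high-intensity stress lowered Dusp4 2.17-fold (log2 fold change -1.11, SE 0.142, edgeR adjusted p = 6.92e-05). Against 500 mOsm it was 1.79-fold lower (log2 fold change -0.84, SE 0.142, edgeR adjusted p = 0.000705). The smaller difference between 500 mOsm and control, -0.27 on the log2 scale, did not pass the test (95% interval -0.56 to 0.02, edgeR adjusted p = 0.162).

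Among the cytoplasmic enzymes, Dusp6 fell at each step. Dusp6 is the classical feedback inhibitor of ERK (ENSMUSG00000019960, chr10:99263231-99267488, plus strand). Its level was 28.6, 30.4 and 27.9 FPKM in control, 14.2, 13.9 and 16.4 FPKM at 500 mOsm and 10.5, 9.45 and 8.78 FPKM at 600 mOsm, with no overlap between the 3 groups. The log2 fold change against control was -0.96 at 500 mOsm (SE 0.0783, edgeR adjusted p = 1.35e-06) and -1.58 at 600 mOsm (SE 0.0808, edgeR adjusted p = 3.55e-08). From 500 to 600 mOsm it fell by 0.62 on the log2 scale (SE 0.0814, edgeR adjusted p = 0.000106).

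Dusp7, another ERK-directed enzyme (ENSMUSG00000053716, chr9:106368632-106375724, plus strand), fell to a like extent at both intensities. It had 30.7, 35.2 and 30.8 FPKM in control, 21.7, 22.4 and 18.0 FPKM at 500 mOsm and 22.1, 19.1 and 20.7 FPKM at 600 mOsm. All 6 stressed libraries lay below the control libraries, and the stressed groups overlapped. The fall was 1.55-fold at 500 mOsm (log2 fold change -0.64, SE 0.0937, edgeR adjusted p = 0.00021) and 1.54-fold at 600 mOsm (log2 fold change -0.62, SE 0.0939, edgeR adjusted p = 0.000271). The difference between the intensities was 0.01 on the log2 scale, with a 95% interval of -0.19 to 0.22 (edgeR adjusted p = 0.942).

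Dusp9, on the X chromosome (ENSMUSG00000031383, chrX:73639419-73643514, plus strand), was the steadiest of the well-expressed members. It measured 26.3, 26.6 and 27.7 FPKM in control, 24.0, 25.3 and 23.3 FPKM at 500 mOsm and 25.3, 26.2 and 26.4 FPKM at 600 mOsm. The 500 mOsm libraries lay just below those of both other groups, without passing the test. The log2 differences were -0.15 for 500 mOsm against control (95% interval -0.27 to -0.03, edgeR adjusted p = 0.0631), -0.03 for 600 mOsm against control (-0.15 to 0.09, adjusted p = 0.724) and 0.12 for 600 against 500 mOsm (0.00067 to 0.24, adjusted p = 0.124).

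The p38/JNK-selective members were all low, between 1.89 and 4.70 FPKM in every library. Dusp8 (ENSMUSG00000037887, chr7:142079490-142095843, minus strand, 7 exons) had 3.997, 4.54 and 4.70 FPKM in control, 2.13, 2.40 and 2.30 FPKM at 500 mOsm and 2.04, 1.89 and 2.49 FPKM at 600 mOsm. Both stressed groups lay below control and overlapped each other. Dusp8 fell by 0.95 on the log2 scale at 500 mOsm (SE 0.116, edgeR adjusted p = 4.25e-05) and by 1.02 at 600 mOsm (SE 0.117, edgeR adjusted p = 2.99e-05). Between the intensities its log2 difference was -0.07 (95% interval -0.33 to 0.20, edgeR adjusted p = 0.731).

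Dusp16, an enzyme directed chiefly at JNK (ENSMUSG00000030203, chr6:134715473-134792625, minus strand, 7 exons), changed only at the high intensity by the test. Control libraries had 4.20, 3.70 and 3.97 FPKM, 500 mOsm libraries 4.24, 3.46 and 3.86 FPKM and 600 mOsm libraries 2.79, 2.71 and 2.45 FPKM. The control and 500 mOsm groups overlapped, and every 600 mOsm library was below them. The log2 fold change at 600 mOsm was -0.56 against control (SE 0.0912, edgeR adjusted p = 0.000496) and -0.52 against 500 mOsm (SE 0.0909, edgeR adjusted p = 0.00088), while 500 mOsm differed from control by -0.04 (95% interval -0.23 to 0.16, adjusted p = 0.814).

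Dusp10, which acts on JNK and p38 (ENSMUSG00000039384, chr1:184013302-184075636, plus strand), passed the test in none of the 3 comparisons. Its libraries had 2.95, 2.46 and 3.004 FPKM in control, 2.50, 2.38 and 2.72 FPKM at 500 mOsm and 2.42, 2.58 and 2.17 FPKM at 600 mOsm, and all 3 groups overlapped. The 95% intervals of the log2 difference were -0.38 to 0.10 for 500 mOsm against control, -0.46 to 0.03 for 600 mOsm against control and -0.31 to 0.17 between the intensities, with edgeR adjusted p values of 0.392, 0.156 and 0.669.

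**Figure D2:**
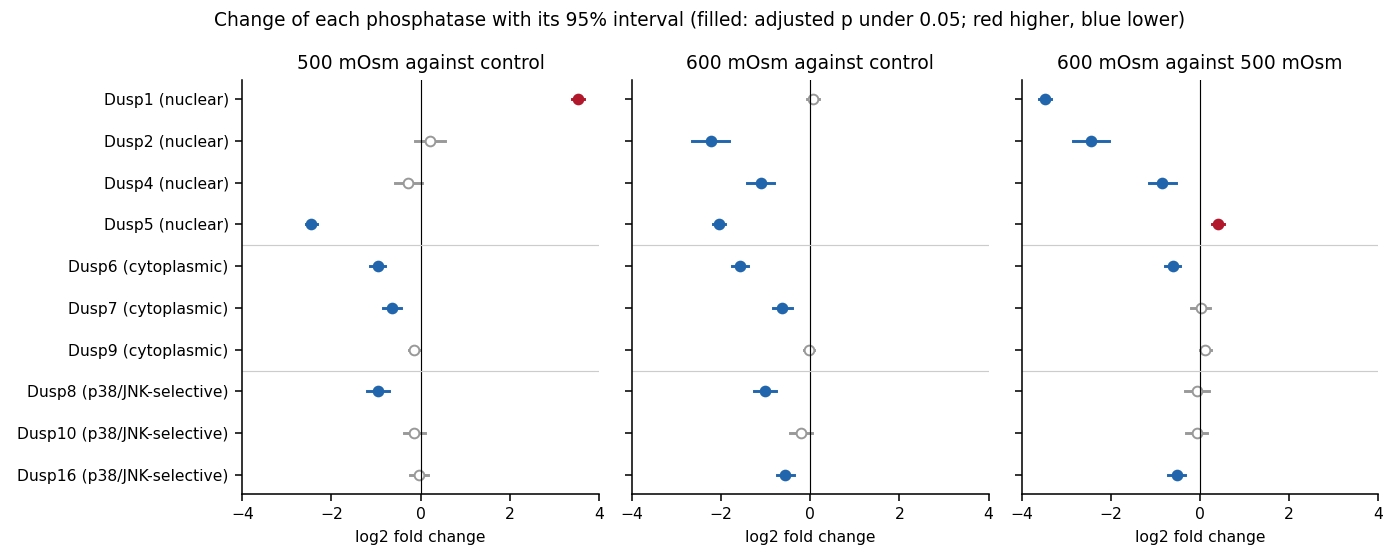
Log2 fold change of each member (horizontal axis) in the 3 comparisons, from edgeR counts, with bars for the 95% confidence interval. Dusp1 stands at 3.52 for 500 mOsm against control and at 0.05 for 600 mOsm against control, and the other members lie at or left of 0.21 in both.

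Counted over the 10 members, 5 were called at 500 mOsm against control, 1 higher and 4 lower, beside 28.0% of all genes tested (13.2% higher and 14.8% lower). At 600 mOsm against control 7 were lower and 0 higher, beside 35.1% of all genes (20.0% lower and 15.1% higher). Between 600 and 500 mOsm 6 were called, 1 higher and 5 lower, beside 29.1% of all genes (11.9% higher and 17.2% lower). The groups of libraries did not overlap for 6, 7 and 7 members in that order, beside 40.9%, 48.4% and 41.5% of all genes, by counts scaled to library size. With a change of at least 2-fold as a further condition, 1 member was higher (Dusp1, beside 5.43% of all genes) and 1 lower (Dusp5, beside 3.14%) at 500 mOsm, and 5 were lower at 600 mOsm (Dusp2, Dusp4, Dusp5, Dusp6 and Dusp8, beside 3.26%) with 0 higher (beside 2.42%). Between 600 and 500 mOsm 2 members were lower by that measure (Dusp1 and Dusp2, beside 4.98%) and 0 higher (beside 1.57%). The median log2 fold change of the members was -0.21, -0.82 and -0.30, where that of all genes tested was 0.01 each time.

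By class, the nuclear members gave 1 higher and 1 lower of 4 at 500 mOsm (median log2 fold change -0.03), 3 lower at 600 mOsm (median -1.58) and 1 higher and 3 lower between the intensities (median -1.64). The cytoplasmic members gave 2 lower of 3 at each intensity (medians -0.64 and -0.62) and 1 lower between the intensities (median 0.01). Of the 3 p38/JNK-selective members, 1 was lower at 500 mOsm (median -0.14), 2 at 600 mOsm (median -0.56) and 1 between the intensities (median -0.07). Of all genes tested, 14.8% were lower at 500 mOsm, 20.0% at 600 mOsm and 17.2% between the intensities. The shares higher were 13.2%, 15.1% and 11.9% in that order. With 3 or 4 genes to a class, these counts describe the members, and no test between classes was made.

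The order of the members by level changed with the treatment. In control the order was Dusp5, Dusp7, Dusp6, Dusp9, Dusp1, Dusp4, Dusp8, Dusp16, Dusp2 and Dusp10, in which the libraries of Dusp8 and Dusp16, and of Dusp2 and Dusp10, overlapped. At 500 mOsm Dusp1 led, followed by Dusp9, Dusp7, Dusp6, Dusp5, Dusp4, Dusp16, Dusp2, Dusp10 and Dusp8, with overlap between Dusp10 and Dusp8. At 600 mOsm Dusp9 led, before Dusp1, Dusp7, Dusp5, Dusp6, Dusp4, Dusp16, Dusp10, Dusp8 and Dusp2, and the libraries of Dusp4 and Dusp16, Dusp16 and Dusp10, and Dusp10 and Dusp8 overlapped.

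The make-up of the family followed Dusp1 and Dusp5. Dusp5 held 33.2 ± 0.328% (SD, n = 3) of the summed FPKM of the 10 members in control, 3.48 ± 0.223% at 500 mOsm and 14.8 ± 0.469% at 600 mOsm. Dusp1 held 11.2 ± 0.475%, 73.8 ± 0.901% and 21.4 ± 0.372% in the same order. The ratio of Dusp1 to Dusp5 levels was thus 0.338 in control, 21.2 at 500 mOsm and 1.45 at 600 mOsm.

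The summed level of all 10 members was 197 ± 6.58 FPKM in control, 342 ± 17.7 FPKM at 500 mOsm and 105 ± 2.74 FPKM at 600 mOsm (SD, n = 3). Without Dusp1 the sums were 175 ± 6.57, 89.7 ± 2.13 and 82.8 ± 2.46 FPKM, so that the rise of the total at 500 mOsm rested on that gene alone. The nuclear members other than Dusp1 summed to 75.4 FPKM in control, 21.2 at 500 mOsm and 19.5 at 600 mOsm. The cytoplasmic members went from 88.0 to 59.7 and 56.2 FPKM, and the p38/JNK-selective members from 11.2 to 8.66 and 7.18 FPKM. As shares of the total, the cytoplasmic class held 44.8% in control, 17.5% at 500 mOsm and 53.3% at 600 mOsm.

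**Figure D3:**
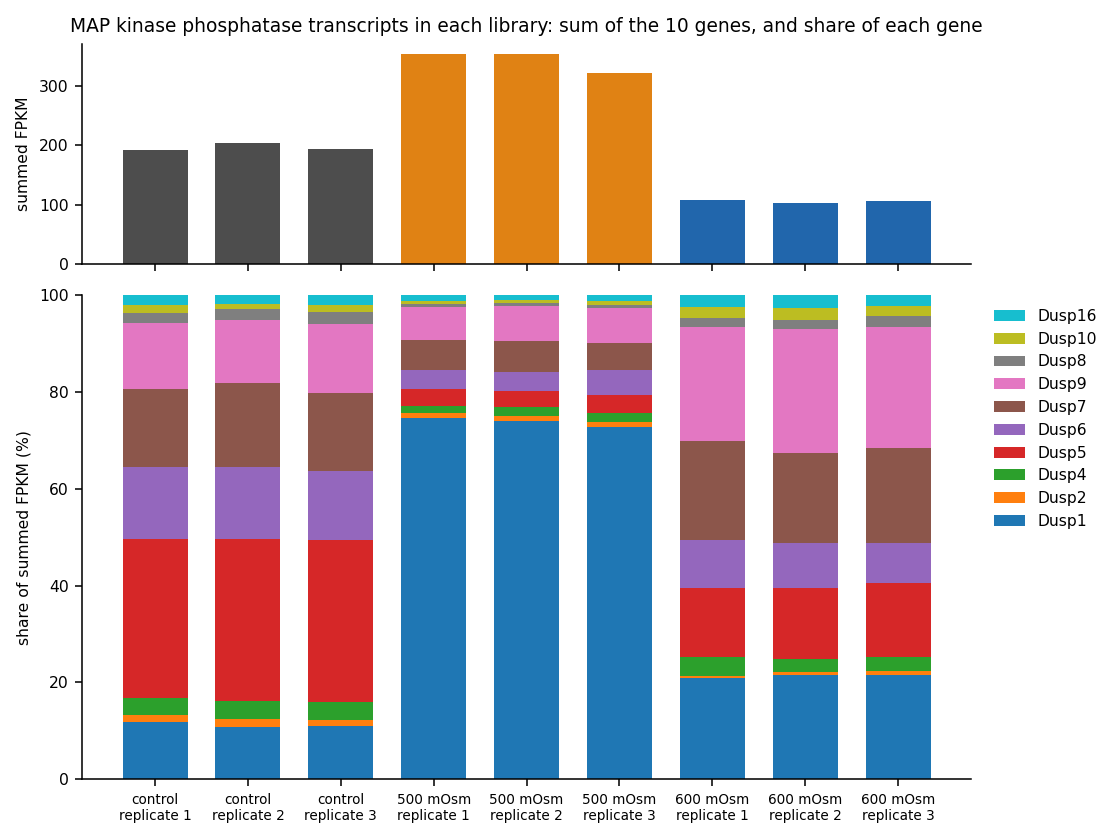
Summed FPKM of the 10 phosphatases (upper bars) and share of that sum (lower bars, percent) held by each member in each of the 9 libraries (horizontal axis). Dusp1 takes 73.8% on average at 500 mOsm, while Dusp5 takes 33.2% in control and Dusp9 24.7% at 600 mOsm.

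In the genome the members lay on 10 different chromosomes, with spans of 2.22 kb (Dusp2) to 77.2 kb (Dusp16) and 3 to 7 exons in the principal transcript. Exons of 3 members overlapped an annotated gene on the opposite strand. Dusp1 shared 11 bases with Ergic1, Dusp5 shared 547 bases with AC137853.2 and Dusp8 shared 66 bases with Gm32786. Whether counting used the strand is not given in the sources used here, so reads from the partners in these stretches could not be told apart. Apart from AC137853.2 and Dusp5, no member shared a stretch of at least 100 bases at 95% identity with another gene.

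The genes whose 9 values lay nearest to each member's, by Euclidean distance of log2 CPM (counts scaled to library size) from the control mean among 10382 candidates, give the pattern of each a context. Nearest to Dusp1 were Gp1ba (distance 0.659), Gem (0.688) and Fos (0.695), whose log2 fold changes at 500 mOsm were 3.55, 3.74 and 3.81. Fos encodes an AP-1 subunit and is a classical immediate early gene. Nearest to Dusp5 were Hmga2 (0.626), Thbd (0.656) and Per2 (0.932), and nearest to Dusp6 were Mtss1 (0.293), Trib1 (0.335) and Phlda1 (0.352).

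Among the nuclear members that fell at 600 mOsm, Dusp2 was most like Ereg (0.832), Has2 (0.880) and Spen (1.05), and Dusp4 most like Clcf1 (0.434), Notch1 (0.454) and Soga1 (0.472). Ereg encodes the growth factor epiregulin and Has2 a hyaluronan synthase. Dusp7 lay nearest to Sphk1 (0.240), Zfp865 (0.292) and Foxf1 (0.292), and Dusp8 to Kctd15 (0.258) and Mapk8ip3 (0.379). Mapk8ip3 encodes a JNK scaffold. The profile of Dusp9 was closest to Nol9 (0.0709), Ptk7 (0.0928) and Ccnd3 (0.0978), and that of Dusp10 to Cisd2 (0.160), Stambp (0.161) and Desi2 (0.166). Dusp16, lower at 600 mOsm only, was closest to Akap10 (0.125), Cggbp1 (0.126) and Prkacb (0.154). These distances are descriptions over 9 libraries and carry no test.

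Of the 8 ERK, p38, JNK and ERK5 genes tested of 10, which encode the kinases that the phosphatases oppose, 0 were called at 500 mOsm, 1 was higher and 2 lower at 600 mOsm, and 2 were lower between the intensities. Their median log2 fold change was 0.01, -0.18 and -0.01 in that order. Counts of these and the following lists stand beside 28.0%, 35.1% and 29.1% of all genes tested called in those comparisons. Of all genes, 13.2%, 15.1% and 11.9% were higher and 14.8%, 20.0% and 17.2% lower. Mapk14, the main p38 kinase, stood at 52.6, 55.3 and 45.8 FPKM on average in control, 500 mOsm and 600 mOsm cells. It was called lower at 600 mOsm against control (log2 fold change -0.18, edgeR adjusted p = 0.0201) and against 500 mOsm (-0.25, edgeR adjusted p = 0.00304). Of 3 atypical MAP kinases tested of 4, 1 rose and 1 fell at 500 mOsm, and 1 fell in each of the other comparisons. The one that rose was Mapk15, by 1.94 on the log2 scale (SE 0.464, edgeR adjusted p = 0.00602), from a trace of 0.0734 FPKM to 0.289 FPKM.

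Upstream, 1 of 7 MAP2 kinases was lower at 500 mOsm, 3 at 600 mOsm and 2 between the intensities, with none higher. Of 20 MAP3 kinases tested of 24 in the table, 1 was higher and 3 lower at 500 mOsm, 1 higher and 2 lower at 600 mOsm, and 3 higher and 5 lower between the intensities. Map3k15 rose at 500 mOsm from 0.0290 to 0.286 FPKM (log2 fold change 3.23, SE 0.402, edgeR adjusted p = 4.53e-05) and was lower again at 600 mOsm than at 500 mOsm (log2 fold change -2.74, SE 0.372, edgeR adjusted p = 0.000119). Map3k1, a kinase upstream of JNK, fell from 0.607 to 0.279 FPKM at 500 mOsm (log2 fold change -1.12, SE 0.165, edgeR adjusted p = 0.000209). These levels are low beside those of most members.

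Downstream, 2 of 10 MAPK-activated kinases tested of 11 were higher at 500 mOsm and 1 at 600 mOsm, with none lower and none called between the intensities. Rps6ka5, a kinase that phosphorylates CREB and histone H3, rose from 0.212 to 0.428 FPKM at 500 mOsm (log2 fold change 1.03, SE 0.297, edgeR adjusted p = 0.0201). Of 10 scaffold genes tested of 12, 2 were lower at 500 mOsm, 5 lower and 1 higher at 600 mOsm, and 2 lower and 1 higher between the intensities.

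Of 10 atypical and small dual-specificity phosphatases tested of 16, 1 was lower at 500 mOsm, 0 were called at 600 mOsm and 1 was higher at 600 than at 500 mOsm. All of these calls were of Dusp14, at 49.2, 42.0 and 50.9 FPKM in control, 500 mOsm and 600 mOsm cells. Of 10 further phosphatases that act on MAP kinases, tested of 12, 2 were higher at 500 mOsm, 4 lower at 600 mOsm and 5 lower at 600 than at 500 mOsm. Ptpn6, a tyrosine phosphatase, rose from 0.196 to 0.432 FPKM at 500 mOsm (log2 fold change 1.13, SE 0.327, edgeR adjusted p = 0.0195) and was lower at 600 than at 500 mOsm (log2 fold change -1.30, SE 0.333, edgeR adjusted p = 0.0106).

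**Figure D4:**
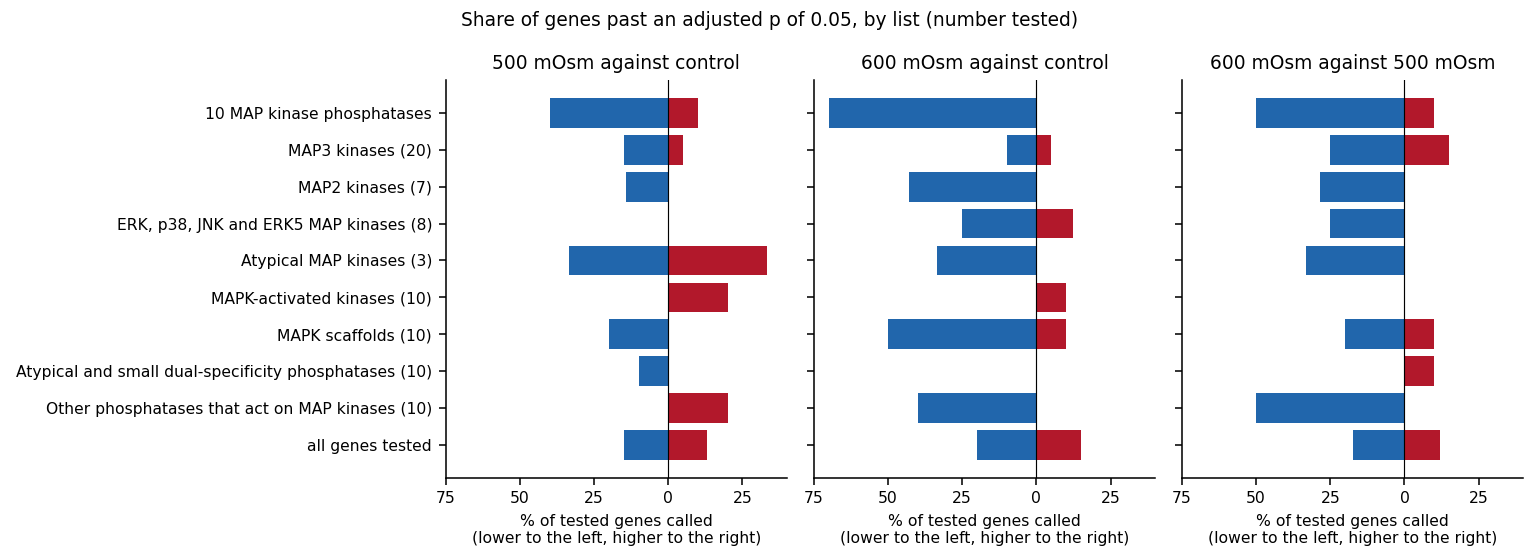
Percent of the tested genes of each list called higher (red, right of 0) or lower (blue, left of 0) in the 3 comparisons, with the number of genes tested in brackets and all genes tested in the last row. The 10 MAP kinase phosphatases had 7 lower and 0 higher at 600 mOsm against control, where 20.0% of all genes were lower and 15.1% higher.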

How the data were processed

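Poly-T selected RNA of 9 MEF samples was sequenced as paired-end reads on an Illumina HiSeq instrument. The authors discarded adapter-containing and low-quality reads and aligned the rest to mm10. The submitters' processing notes name CASAVA 1.8 and STAR, and the counting tool and its strand setting are not given in the sources used here. The deposited table holds read counts and FPKM per gene and library, as the authors made them, beside columns of the authors' own comparisons (group means, fold changes and p-values), which were not used. Samples were grouped by the labels' treatment, 3 libraries to a group. The members and gene lists were chosen with earlier results of these data known.

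Counts were fitted for all 9 libraries together with edgeR 4.0.16 (R 4.3.3), with TMM factors (0.974 to 1.01), filterByExpr and the quasi-likelihood F test. P-values were Benjamini-Hochberg adjusted over 13082 genes with a threshold of 0.05, and the code was tested on simulated data. The SE was the unshrunk log2 fold change divided by the root of its F value, and intervals are 95%. Depth limits low genes such as Dusp2 most. FPKM were used for levels, with no pseudocount. The genes named were all members, called genes of the other lists whose log2 fold change was 1 or more in size, and the 3 genes nearest to each member among those with a mean log2 CPM of at least 1, and some of these genes are not reported here. Positions are from GENCODE M21, shared sequence from blastn 2.17.0 and promoters from RefSeq (GRCm38.p6). Where a symbol had 2 rows, the one with more counts was taken. Alternatives were DESeq2 1.42.0, limma 3.58.1 on log2(FPKM + 1) and log2(FPKM + 0.1), other scaling, filters and thresholds, fits of only the groups compared, a replicate block and leaving out each library.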

Additional observations from a re-analysis of the deposited data

Results flagged for a closer look

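For 6 members the effect of the stress against control differed between the intensities by edgeR's test of 600 against 500 mOsm, in which the control cancels. The log2 difference, 600 minus 500 mOsm, was -3.47 for Dusp1, -2.44 for Dusp2, -0.84 for Dusp4, -0.62 for Dusp6 and -0.52 for Dusp16, and 0.41 for Dusp5. All 3 libraries at 600 mOsm lay below all 3 at 500 mOsm for the members with a negative value and above them for Dusp5. For Dusp1 the value reflects a rise at 500 mOsm with no call at 600 mOsm. Dusp2, Dusp4 and Dusp16 had a call against control at 600 mOsm only, Dusp5 fell less at 600 than at 500 mOsm, and Dusp6 fell more. With 3 libraries per group, single libraries were not tested as outlying.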

How the results depend on the processing

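Of the 270 member log2 fold changes recomputed under settings other than leaving out a library, 262 kept their direction and side of the threshold, 4 passed the threshold anew and 4 changed sign. The sign changes were all of Dusp7 for 600 against 500 mOsm, whose value went to -0.0048 with total counts alone, -0.00016 with at least 10 counts in every library, -0.00099 with limma on log2(FPKM + 1) and -0.00085 with log2(FPKM + 0.1). Dusp9 at 500 mOsm was called with total counts alone (-0.15, edgeR adjusted p = 0.0487), with limma (-0.15, adjusted p = 0.0365 and 0.0386 for the larger and smaller pseudocount) and without 500 mOsm replicate 2 (-0.20, edgeR adjusted p = 0.0290), and Dusp4 at 500 mOsm with no filter on low counts (-0.29, edgeR adjusted p = 0.0342). The log2(FPKM + 1) scale, which understates changes of low genes, gave -1.28 for Dusp2 at 600 mOsm against control and -1.45 against 500 mOsm. Where calls also needed a log2 fold change of 1 or more in size, 2 members were called at 500 mOsm (1 lower) and 2 between the intensities (0 higher, 2 lower), since fewer genes pass that bound by construction.

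Leaving out each library in turn gave 5 to 6 members called at 500 mOsm (4 to 5 lower), 7 at 600 mOsm and 6 between the intensities. Log2 values ranged from -0.0852 to 0.0899 for Dusp7 and from -0.204 to 0.0304 for Dusp8 between the intensities, and from -0.109 to 0.0183 for Dusp16 at 500 mOsm, and the signs changed without 1 of several libraries, with no call in any of them. Replicate numbers are shared across groups. Deviations from the group means had a mean correlation of -0.198 over 9 same-numbered pairs, with single pairs from -0.535 to 0.450. Over 18 pairs of unlike number the mean was 0.101, with single pairs from -0.273 to 0.506. Taking deviations from group means ties these means to each other, so their contrast cannot show whether libraries were paired. With a replicate block, 5, 7 and 6 members were called in the 3 comparisons as without it, and the calls over all genes went from 3659 to 3111, from 4594 to 3798 and from 3810 to 3089. Depth limits Dusp2 most, with 19 to 32 counts at 600 mOsm.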

Other observations

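Several regulators of MAP kinases outside the family changed by less than 1 on the log2 scale and are named here after their values were seen. Map2k3, a MAP2 kinase that activates p38, stood at 223 FPKM in control, 188 at 500 mOsm and 143 at 600 mOsm, and fell by 0.24 and 0.62 on the log2 scale against control (edgeR adjusted p = 0.000528 and 2.47e-07). Ccm2, a scaffold of the p38 response to hyperosmolarity, measured 78.4, 45.3 and 62.4 FPKM in that order, and its log2 fold change against control was -0.79 at 500 mOsm and -0.31 at 600 mOsm (edgeR adjusted p = 1.96e-07 and 0.00051). It was higher at 600 than at 500 mOsm by 0.48 on the log2 scale (edgeR adjusted p = 2.04e-05). Map3k14, the kinase that activates the noncanonical NF-kappaB pathway, fell at 500 mOsm from 8.67 to 5.68 FPKM (log2 fold change -0.61, edgeR adjusted p = 3.07e-05) and stood at 9.52 FPKM at 600 mOsm, where its log2 difference from control of 0.15 did not pass the test (edgeR adjusted p = 0.102).

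Among the other phosphatases, Ppm1b fell at 600 mOsm from 16.9 to 8.86 FPKM (log2 fold change -0.91, edgeR adjusted p = 5.93e-07). Ppm1d, a p53 target whose product acts on p38, rose at 500 mOsm from 12.5 to 17.2 FPKM (log2 fold change 0.46, edgeR adjusted p = 0.00246), and at 600 mOsm it stood at 12.6 FPKM. Mapk8ip3, the JNK scaffold near Dusp8 in its pattern, went from 7.21 to 3.62 and 3.64 FPKM, with log2 fold changes of -0.99 and -0.97 (edgeR adjusted p = 5.60e-07 and 8.14e-07).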
